A study of Mus musculus with 11 samples.

Results

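The genes described here handle and sense bile acids in the gut epithelium. They were picked by their role, with earlier results of these data known, and found by gene symbol. The symbols were Slc10a2, Fabp6, Slc51a, Slc51b, Nr1h4, Nr0b2 and Fgf15, and all 7 were found among the 47131 genes of the count table. The RNA came from mouse colorectal organoids, epithelial cultures started from fragments of the colon of C57BL/6J mice (females, 6 to 8 weeks old) and grown in Matrigel with an organoid growth medium. NAP was given at 10 pM for 48 h to the organoids behind 6 libraries, and 5 libraries came from control organoids. The labels do not say what NAP stands for. For the controls, the sample descriptions give no treatment, while the treatment protocol gives phosphate-buffered saline as vehicle. All 11 libraries carry batch label 1. The labels call the libraries biological replicates but do not tie them to separate animals or cultures, so a p-value here reflects variation among these 11 libraries, some of which may be technical. Each group is a culture of epithelium without the liver, the gut lumen or the rest of the bile acid circuit.

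Bile acids are made from cholesterol in the liver, released into the gut with bile, and mostly taken back up at the end of the small intestine. ASBT, the product of Slc10a2, carries them with sodium across the apical membrane. FABP6 binds them in the cytosol, and OSTα and OSTβ, the products of Slc51a and Slc51b, form the basolateral exporter and need each other to reach the membrane. FXR, the nuclear receptor encoded by Nr1h4, is activated by bile acids and pairs with RXR on DNA. Its known targets include Fabp6, Slc51a, Slc51b, Nr0b2 (the repressor SHP) and Fgf15, the hormone that lowers bile acid synthesis in the liver. In the colon uptake by ASBT is low, and FXR and the exporter are expressed in surface colonocytes.

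A RefSeq window on GRCm38.p6 was found for 6 of the 7 genes. The 250 bases before the annotated start were searched on both strands for the inverted repeat that FXR with RXR is known to bind (AGGTCA, any base, TGACCT), for the single hexamer AGGTCA, which lies inside that repeat, and for TTTATG, the core that CDX homeobox factors of the gut epithelium bind. The windows of the transporters and the binding protein are printed 5′ to 3′ on the strand of the gene, because they show how these 4 genes differ in such letters. Capitals mark the CDX core in Slc10a2 and the inverted repeat matches in the other windows. The windows lie at chr8:5105288-5105537 for Slc10a2, chr11:43601563-43601812 for Fabp6, chr16:32487880-32488129 for Slc51a and chr9:65422774-65423023 for Slc51b, all on the minus strand.
Slc10a2: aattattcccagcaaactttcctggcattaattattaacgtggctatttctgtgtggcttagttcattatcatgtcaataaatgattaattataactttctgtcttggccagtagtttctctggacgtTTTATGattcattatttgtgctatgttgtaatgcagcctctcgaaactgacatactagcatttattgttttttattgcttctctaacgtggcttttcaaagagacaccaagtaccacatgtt
Fabp6: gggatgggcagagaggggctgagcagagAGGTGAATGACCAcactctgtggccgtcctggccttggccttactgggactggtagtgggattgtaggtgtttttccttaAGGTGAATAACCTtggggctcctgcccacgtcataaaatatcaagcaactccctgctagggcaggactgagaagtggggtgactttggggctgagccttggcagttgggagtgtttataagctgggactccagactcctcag
Slc51a: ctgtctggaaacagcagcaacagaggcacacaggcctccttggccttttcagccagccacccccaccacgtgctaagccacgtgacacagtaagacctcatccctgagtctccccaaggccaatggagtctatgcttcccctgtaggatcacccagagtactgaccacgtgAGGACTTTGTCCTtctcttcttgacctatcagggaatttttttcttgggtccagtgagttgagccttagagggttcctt
Slc51b: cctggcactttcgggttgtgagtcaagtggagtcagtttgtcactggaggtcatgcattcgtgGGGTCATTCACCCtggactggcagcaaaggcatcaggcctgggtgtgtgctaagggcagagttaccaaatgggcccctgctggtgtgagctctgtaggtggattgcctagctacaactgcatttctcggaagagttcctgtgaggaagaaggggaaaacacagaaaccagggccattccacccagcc

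The HNF4 motif (CAAAGTCCA) and the GATA motif (AGATAA) were also searched. GATA had no match in the 4 windows, and HNF4 had 1 with 1 mismatch, in Slc51a and inside the repeat match, as 7.05% of windows did. The Slc10a2 window held no inverted repeat with up to 3 mismatches. It held the CDX core once, starting 122 bases before the start, as did 10.8% of 32851 windows, and the Fabp6 window held it too, outside the capitals. Fabp6 held 2 repeats with 2 mismatches each, starting 222 and 142 bases before the start, and 0.959% of windows held a repeat that close. The Slc51a and Slc51b matches were looser, with 3 mismatches each, starting 79 and 187 bases before the start, and 9.63% of windows held a match at least that close. Slc51a and Slc51b also held the hexamer, which stood in 14% of windows. Nr0b2 held neither the repeat nor the CDX core in this window. The annotated start of the Nr1h4 window lies 26987 bases inside the gene from its 5′ end, so that window is not described as the promoter. A match is a run of letters and was not tested as a binding site.

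Across the gene set, 4 genes passed the filter on low counts (Slc10a2, Slc51a, Slc51b and Nr1h4) and 3 did not (Fabp6, Nr0b2 and Fgf15). Slc10a2 was 3.37-fold higher in NAP than in control libraries, with every NAP library above every control, but its adjusted p missed the threshold. Slc51a, Slc51b and Nr1h4 overlapped between the groups, and for all 3 the controls held both the highest and the lowest library. Of the 4 tested genes, 0 had an adjusted p under 0.05 by the quasi-likelihood test of edgeR, as 2.12% of 14840 tested genes did (315 genes, 156 higher and 159 lower). DESeq2 and limma-voom each called 1 of the 4, Slc10a2, where DESeq2 called 13% of 12701 genes and limma-voom 2.21% of 14840. At an unadjusted p under 0.05, 1 of the 4 passed, beside 23.6% of tested genes. For 1 of the 4, every NAP library lay above every control, beside 2.14% of tested genes. The log2 fold changes of the 4 were positive for 2 and negative for 2, with a median of −0.04 beside −0.07 for all tested genes.

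Total counts ranged from 16546263 to 21947414 per library. Controls 2 and 5 stood apart from the other 9 libraries with 27218 and 25725 detected genes, against 19828 to 22390. The mitochondrial chromosome took 2.74 to 4.78% of counts in controls and 5.17 to 8.08% after NAP, without overlap. The 315 calls fell to 0 without control 1, 2 or 5 or without NAP 2, 4 or 5, where 2614 to 3311 genes had an unadjusted p under 0.05. They numbered 112 to 814 without any other single library.

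**Figure D1:**
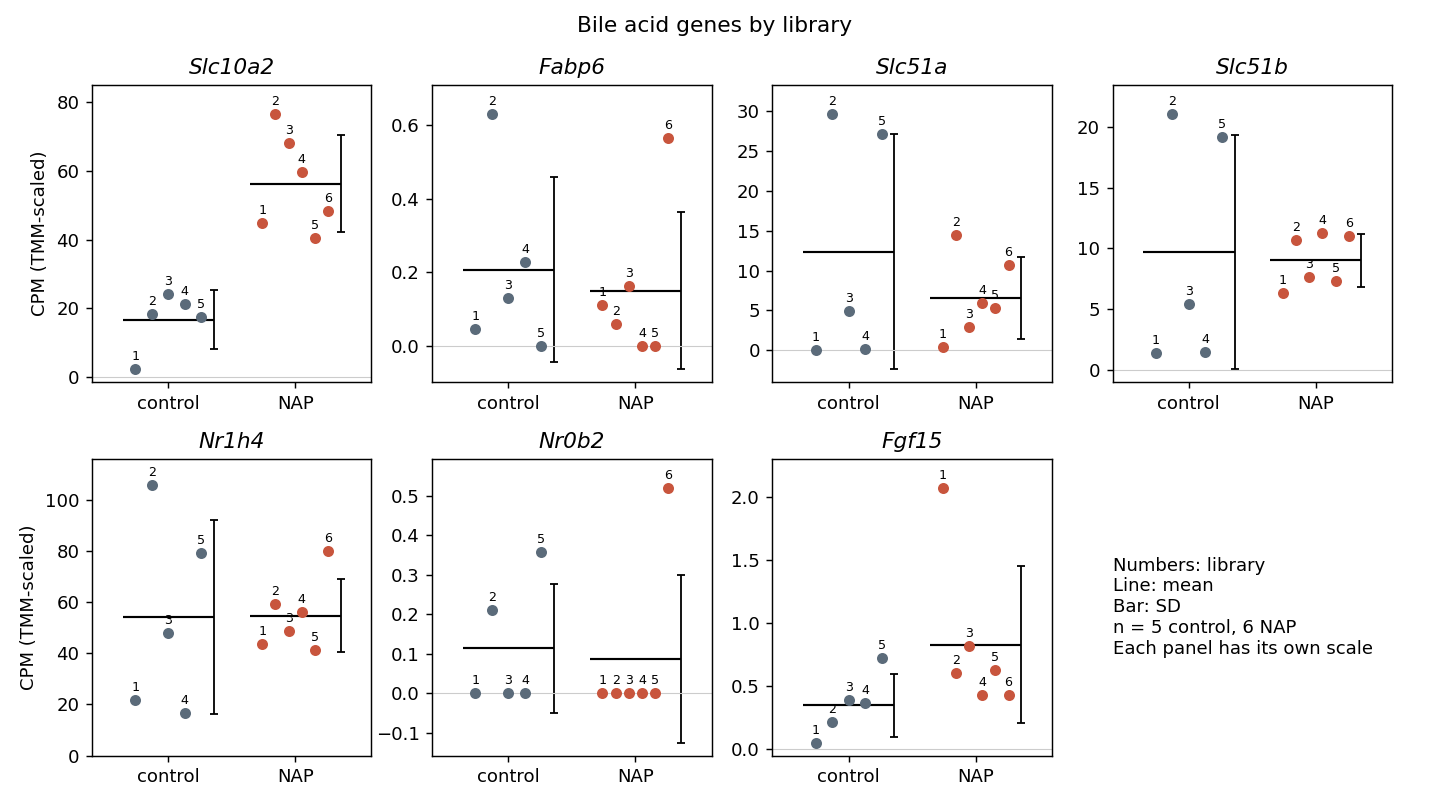
Level of each of the 7 genes in each library, in CPM scaled by TMM (vertical axis, a separate scale in each panel), for 5 control and 6 NAP libraries numbered by replicate. Horizontal lines are means and vertical bars are SD. Slc10a2 separates the groups, controls 2 and 5 are the highest libraries for Slc51a and Slc51b, and Fabp6, Nr0b2 and Fgf15 stay near 0.

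Slc10a2 (gene identifier 20494, chr8:5133219-5155287 on GRCm39, minus strand) encodes the apical uptake transporter. Controls 1 to 5 held 2.31, 18.5, 24.3, 21.2 and 17.5 CPM (counts scaled to library size by TMM), from 50, 265, 562, 462 and 244 counts. NAP libraries 1 to 6 held 45.0, 76.5, 68.1, 59.8, 40.5 and 48.4 CPM, from 806, 1278, 1257, 984, 644 and 1027 counts. The lowest NAP library was above the highest control, and control 1 was far below the other controls. The means were 16.8 ± 8.50 CPM in controls (SD, n = 5) and 56.4 ± 14.1 CPM with NAP (SD, n = 6). The log2 fold change was 1.75 (SE 0.43, 95% interval 0.82 to 2.68), which is 3.37-fold with an interval of 1.77 to 6.41. The unadjusted p was 0.00133 and the adjusted p 0.0523 in edgeR's quasi-likelihood test. By p the gene was number 378 of the tested genes, and 70 tested genes had a log2 fold change at least as large.

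The direction of the Slc10a2 difference was the same under each of the 26 alternatives run, while the call depended on the tool and the libraries. The adjusted p was 0.00147 in DESeq2 and 0.0479 in limma-voom, and 0.135 with a block for the replicate number. Without NAP 1 it was 0.0460, in a fit that called 5.58% of tested genes, and without any other single library it ranged from 0.0542 to 0.133. It was 0.0366 in limma on log2(FPKM + 1), which called 2.42% of genes, and 0.0175 without controls 1 and 4, where 8.28% were called. At an adjusted p of 0.1 Slc10a2 passed with 9.97% of tested genes. Without control 1, the lowest library, the log2 fold change was 1.47. There the unadjusted p was 1.54e-05 and the adjusted p 0.0789 in edgeR's quasi-likelihood test, in a fit that called 0 genes. Transcripts of Slc10a2 had a GC content of 35.7%, below the median of 49.8% for tested genes. For GC, each gene's log2 CPM was taken less its mean over libraries, so values are relative to the other libraries. The rank correlation of these deviations with GC ran from 0.0206 to 0.355 in controls and from −0.543 to 0.121 in NAP libraries. With each library's GC trend removed, the log2 fold change was 1.36 and the adjusted p 0.137.

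**Figure D2:**
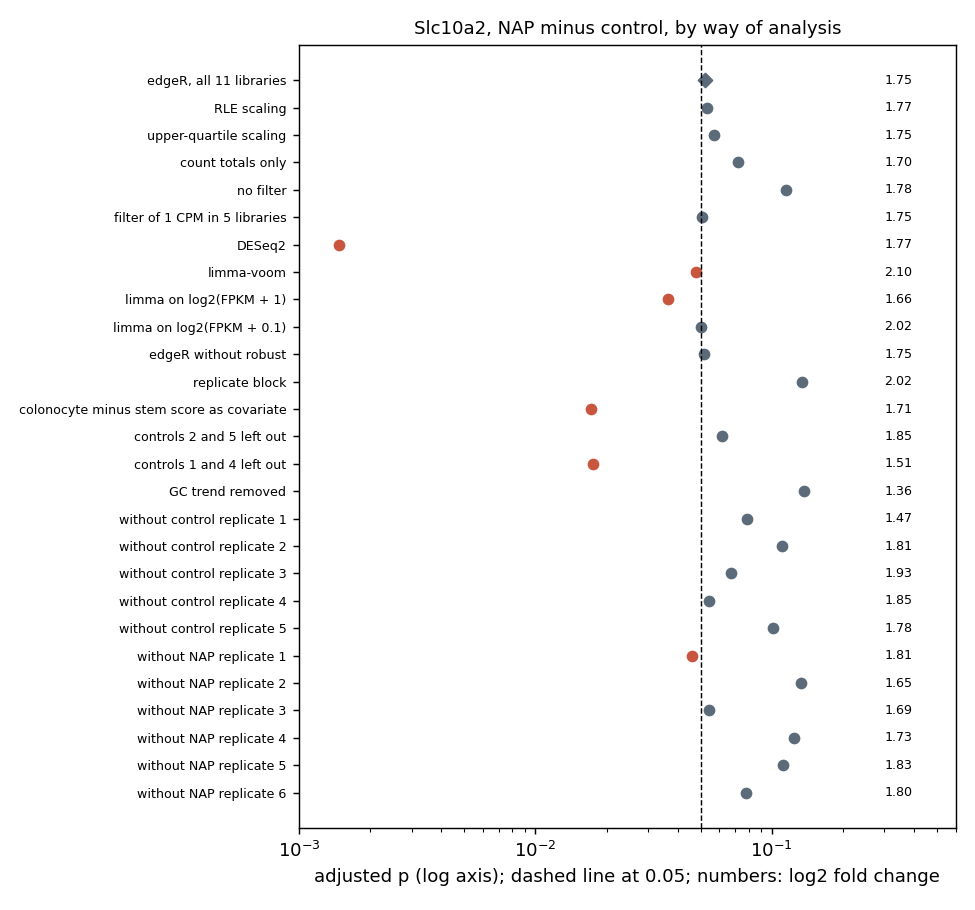
Adjusted p of Slc10a2 for NAP against control (horizontal log axis, dashed line at 0.05) under each way of analysis (rows), with the log2 fold change printed at the right. The diamond is edgeR on all 11 libraries, red points pass the threshold and grey points do not; the fold change stays between 1.36 and 2.10 while the adjusted p runs from 0.00147 to 0.137.

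Fabp6 (gene identifier 16204, chr11:43486867-43492389 on GRCm39, minus strand), the cytosolic bile acid binding protein of the ileum, was close to the limit of detection in both groups. Controls 1 to 5 held 1, 9, 3, 5 and 0 counts, and NAP libraries 1 to 6 held 2, 1, 3, 0, 0 and 12. The highest values came from control 2 and NAP 6, at 0.629 and 0.566 CPM. A level of 0 counts allows up to 3 counts, or 0.130 to 0.215 CPM depending on the library, for counting error only. Pooled over libraries the level was 0.190 CPM in controls (95% exact Poisson interval 0.112 to 0.2997) and 0.169 CPM with NAP (0.10003 to 0.267). The group means differed by −0.057 CPM (two-sided exact permutation over 462 splits, p = 0.589). With 3 genes tested in this way, p-values are given unadjusted. At this depth no difference in Fabp6 was detectable, while the uptake transporter Slc10a2 had at least 244 counts in every library but control 1.

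Slc51a (gene identifier 106407, chr16:32294396-32306697 on GRCm39, minus strand), which encodes the OSTα subunit of the exporter, had the widest range among the tested members. Controls 1 to 5 held 0.092, 29.6, 4.89, 0.183 and 27.1 CPM, from 2, 424, 113, 4 and 379 counts. NAP libraries 1 to 6 held 0.391, 14.5, 2.93, 5.90, 5.28 and 10.7 CPM, from 7, 242, 54, 97, 84 and 227 counts. Controls 2 and 5 were above every NAP library, and controls 1 and 4 were below every NAP library. The highest control was 321-fold above the lowest, and the lowest held only 2 counts. The means were 12.4 ± 14.8 CPM in controls and 6.61 ± 5.16 CPM with NAP (SD, n = 5 and 6), with a log2 fold change of −0.90 (SE 1.09, 95% interval −3.24 to 1.45; adjusted p = 0.648 in edgeR's quasi-likelihood test). Its sign depended on controls 2 and 5: without both, the log2 fold change was 1.95 (adjusted p = 0.267). As these were the highest libraries, leaving them out raises the value by construction.

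Slc51b (gene identifier 330962, chr9:65320035-65330055 on GRCm39, minus strand), which encodes the OSTβ subunit, ranked the libraries in a similar but not identical order. Controls 1 to 5 held 1.43, 21.03, 5.45, 1.47 and 19.2 CPM, from 31, 301, 126, 32 and 268 counts. NAP libraries 1 to 6 held 6.37, 10.7, 7.64, 11.2, 7.29 and 11.03 CPM, from 114, 179, 141, 185, 116 and 234 counts. All NAP libraries lay between the 3 low and the 2 high controls. The means were 9.71 ± 9.65 and 9.05 ± 2.18 CPM (SD, n = 5 and 6), and the log2 fold change was −0.09 (SE 0.62, 95% interval −1.43 to 1.24; adjusted p = 0.942 in edgeR's quasi-likelihood test). That interval includes changes of more than 2-fold either way. Without controls 2 and 5 the log2 fold change was 1.72 (adjusted p = 0.0504), and without control 2 or control 5 alone it was 0.42 or 0.31. Leaving out the 2 highest controls raises the value by construction, so these fits are no support for a difference. Rasl12, a gene on the opposite strand that overlaps Slc51b, had 585 counts over all libraries, and reads of the pair cannot be told apart where the counting did not use strand.

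Nr1h4 (gene identifier 20186, chr10:89290096-89369484 on GRCm39, minus strand), which encodes FXR, was well detected in every library. Controls 1 to 5 held 21.9, 105.6, 48.0, 16.8 and 79.1 CPM, from 474, 1512, 1110, 367 and 1104 counts. NAP libraries 1 to 6 held 43.6, 59.1, 48.7, 56.1, 41.1 and 79.7 CPM, from 781, 987, 899, 923, 654 and 1692 counts. The group means were nearly equal, at 54.3 ± 37.9 and 54.7 ± 14.1 CPM (SD, n = 5 and 6), and again the controls held both the highest and the lowest library. The log2 fold change was 0.01 (SE 0.41, 95% interval −0.86 to 0.89; adjusted p = 0.987 in edgeR's quasi-likelihood test). Leaving out controls 1 and 4 gave −0.47 (adjusted p = 0.241), and leaving out controls 2 and 5 gave 0.94 (adjusted p = 0.0843). Those pairs were the lowest and the highest controls, so the direction of each shift was set by the choice of libraries.

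Nr0b2 (gene identifier 23957, chr4:133280687-133283997 on GRCm39, plus strand), the SHP gene, was at 0 counts in 8 of 11 libraries. Control 2 held 3 counts, control 5 held 5 and NAP 6 held 11, at 0.210, 0.358 and 0.518 CPM. Pooled levels were 0.0843 CPM in controls (95% exact Poisson interval 0.0364 to 0.166) and 0.103 CPM with NAP (0.0515 to 0.185). The difference of means was −0.027 CPM (two-sided exact permutation, p = 0.848). The libraries with reads for this FXR target were controls 2 and 5, which also held the most Slc51a and Slc51b, and NAP 6. Detected genes were also most numerous in control 2, control 5 and NAP 6, at 27218, 25725 and 22390. What these few reads follow was not tested.

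Fgf15 (gene identifier 14170, chr7:144450269-144454690 on GRCm39, plus strand), the enterokine induced by FXR in the ileum, had 31 counts over the controls and 88 over the NAP libraries. Controls 1 to 5 held 1, 3, 9, 8 and 10 counts, and NAP libraries 1 to 6 held 37, 10, 15, 7, 10 and 9. NAP 1 was above all other libraries at 2.07 CPM, and the rest of the NAP libraries, at 0.424 to 0.813 CPM, overlapped control 5 at 0.716 CPM. The means were 0.346 ± 0.249 and 0.826 ± 0.6247 CPM (SD, n = 5 and 6), and the difference of 0.480 CPM missed the threshold (two-sided exact permutation, p = 0.0931). Pooled levels were 0.327 CPM in controls (95% exact Poisson interval 0.222 to 0.464) and 0.825 CPM with NAP (0.662 to 1.02), intervals that do not overlap but leave out the spread between libraries. Fitted with no filter in edgeR, the log2 fold change was 1.30 (adjusted p = 0.302). Fgf15 passed the filter when some controls were left out, with 1.63 without controls 2 and 5 (adjusted p = 0.163), 1.17 without control 2, 1.30 without control 4 and 0.94 without controls 1 and 4. Counts of 10 or more stood in NAP 1, 2, 3 and 5 but, among controls, only in control 5. The gene thus entered these fits largely through the group where it was higher, so their values are no support for a difference. Without NAP 1 the difference was 0.232 CPM (two-sided exact permutation, p = 0.135). By the same test p was 0.0476 without control 5, and 0.0635 to 0.262 without any other single library. Gm26793, a long non-coding RNA gene on the opposite strand that overlaps Fgf15, had 35 counts over all libraries.

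The levels of different genes were compared per length, with the deposited FPKM values. Nr1h4 was the highest of the 7 genes in 8 libraries and Slc51b in the other 3 (controls 2 and 5 and NAP 4). Nr1h4 ranged from 6.26 to 39.7 FPKM in controls and from 15.5 to 29.6 FPKM after NAP, and Slc51b from 2.79 to 42.0 and from 12.6 to 22.4 FPKM, so the levels of these neighbours overlapped in both groups. Slc10a2 ranged from 0.537 to 5.69 FPKM in controls, overlapping Slc51b, and from 9.69 to 18.2 FPKM after NAP, overlapping both Slc51b and Nr1h4. It stood at rank 3 of the 7 genes in 7 libraries, at rank 2 in control 4 and NAP 3, and at rank 4, below Slc51a, in controls 2 and 5. Slc51a stood at 0.057 to 18.7 FPKM in controls and 0.244 to 9.13 FPKM after NAP, and stood below Fabp6, Fgf15 or both in controls 1 and 4 and NAP 1. Fabp6 at 0 to 1.202 and 0 to 1.07 FPKM, Fgf15 at 0.0243 to 0.384 and 0.226 to 1.10 FPKM, and Nr0b2 at 0 to 0.271 and 0 to 0.3896 FPKM were low in every library, with ranges that overlapped each other.

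The exporter subunits were not at a fixed ratio. Slc51b exceeded Slc51a in FPKM in every library, by 2.24 to 49.0 times in controls and 2.34 to 51.5 times after NAP, with the largest ratios in controls 1 and 4 and NAP 1, where Slc51a had only 2, 4 and 7 counts. The FPKM ratio of Slc10a2 to Slc51b, the uptake gene over 1 exporter subunit gene, was 0.105 to 1.72 in controls and 0.524 to 1.06 after NAP. The groups overlapped, and transport itself was not measured. The ratio of Slc10a2 to Nr1h4 was 0.067 to 0.799 in controls and 0.385 to 0.888 after NAP.

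The spread between libraries was uneven between the groups. Among controls, the SD of log2 CPM was 1.39 for Slc10a2, 3.47 for Slc51a, 1.85 for Slc51b and 1.14 for Nr1h4, beside 0.50 for the median tested gene. These stood at percentiles 93.6, 99.9, 98.0 and 88.8 of the tested genes. Among NAP libraries the SD was 0.36, 0.35 and 0.35 for Slc10a2, Slc51b and Nr1h4, near the median of 0.38, while Slc51a stayed wide at 1.74. The difference in spread was not tested.

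Slc51a, Slc51b and Nr1h4 ranked the libraries alike. Control 2 was the highest library for all 3, and controls 1 and 4 were the lowest 2 for all 3. Over the 11 libraries, Pearson's r of log2 CPM was 0.92 between Slc51a and Slc51b, 0.91 between Slc51a and Nr1h4 and 0.97 between Slc51b and Nr1h4, with Spearman's rho of 0.92, 0.90 and 0.91. Slc10a2 ranked the libraries differently, with NAP libraries at ranks 1 to 6, and its r with the 3 was 0.41 to 0.52 and its rho 0.13 to 0.21. These are descriptions over libraries that share depth and cell makeup.

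The extreme libraries of the exporter were also the extremes of a marker score, the level of colonocyte markers less that of stem cell markers. This score, a difference of mean log2 deviations, was −2.21, 2.14, −0.997, −3.42 and 2.06 in controls 1 to 5 and −0.19, 1.07, −0.47, 0.97, 1.15 and −0.09 in NAP libraries 1 to 6. Controls 2 and 5 had the highest scores and the most Slc51a and Slc51b, and controls 1 and 4 the lowest scores and the least. Nr1h4 was lowest in controls 1 and 4 and highest in control 2, but NAP 6, with a score of −0.09, held more of it than control 5, and NAP 5, with a score of 1.15, stood at rank 9 of 11. Slc10a2 was low in controls at both ends of the score. In bulk RNA, fewer cells of a type and less RNA per cell cannot be told apart. With the score as a covariate, the log2 fold change of Slc10a2 was 1.71 (unadjusted p = 0.00154, adjusted p = 0.0172 in edgeR's quasi-likelihood test, in a fit that called 21.6% of tested genes), that of Slc51a −0.28 (adjusted p = 0.779), that of Slc51b 0.11 (adjusted p = 0.787) and that of Nr1h4 −7.74e-04 (adjusted p = 0.998).

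**Figure D3:**
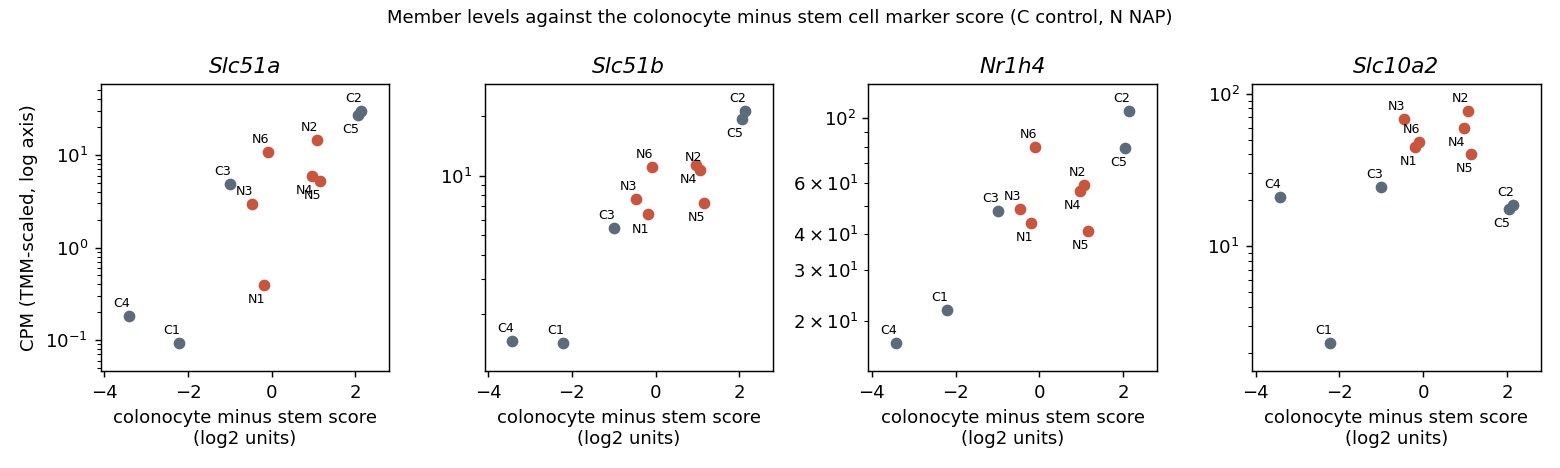
Level of Slc51a, Slc51b, Nr1h4 and Slc10a2 in each library (vertical log axis, TMM-scaled CPM) against the colonocyte minus stem cell marker score of that library (horizontal axis, log2 units); C marks controls, N marks NAP, with replicate numbers. Controls 1 and 4 are the lowest libraries for the exporter and receptor genes, controls 2 and 5 are the highest for Slc51a and Slc51b, and all NAP libraries lie above all controls for Slc10a2.

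Genes with the most similar pattern over the 11 libraries were taken by Pearson's r of log2 CPM among 11075 candidates. For Slc10a2 these were Lyve1, a hyaluronan receptor (r = 0.94, rho = 0.87), Dhrs9, a retinol and steroid dehydrogenase (r = 0.93, rho = 0.96), and Pm20d2 (r = 0.93, rho = 0.87). Without controls 1 and 5, the libraries farthest from the median, r was 0.84, 0.94 and 0.81. Because Slc10a2 separates the groups, a gene chosen for a like pattern tends to do so too, and its levels are a description: Dhrs9 was at 4.13 ± 1.78 CPM in controls and 12.9 ± 2.78 CPM with NAP (SD, n = 5 and 6).

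For Slc51a the nearest genes were Mogat2, which makes diacylglycerol for fat absorption (r = 0.98), Glrx (r = 0.97) and Clec2h (r = 0.97). For Slc51b they were Nags, which makes the activator of the urea cycle (r = 0.99), Glod5 (r = 0.98) and Scp2, the peroxisomal thiolase and sterol carrier that also shortens the bile acid side chain (r = 0.98). For Nr1h4 they were Car1, a carbonic anhydrase of colonocytes (r = 0.99), Decr1, an enzyme of fatty acid oxidation (r = 0.98), and Ociad2 (r = 0.97). Without controls 1 and 4, r for these 9 genes was 0.91 to 0.97.

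Of the other bile acid receptors, 4 of 5 were tested and 0 passed the threshold, 1 at an unadjusted p under 0.05. This list and those below can be set beside all 14840 tested genes. Of all tested genes, 23.6% had an unadjusted p under 0.05 in edgeR's quasi-likelihood test, and 44.7% had a positive log2 fold change. S1pr2, a sphingosine phosphate receptor that conjugated bile acids also activate, was at 4.20 ± 3.64 CPM in controls and 1.24 ± 1.13 CPM with NAP (log2 fold change −1.76, SE 0.73, adjusted p = 0.171 in edgeR's quasi-likelihood test). Vdr, the vitamin D receptor that also senses lithocholic acid, was at 335 ± 178 and 405 ± 20.4 CPM (log2 fold change 0.28, adjusted p = 0.607). Gpbar1, the membrane receptor TGR5, missed the filter with 26 counts in controls and 19 after NAP.

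Among partners and regulators of these genes, 21 of 23 were tested, 8 with a positive and 13 with a negative log2 fold change (median −0.09), and 0 passed the threshold. An unadjusted p under 0.05 was reached by 8 of the 21, 5 higher and 3 lower. Over all tested genes the share was 23.6%, with 1607 higher and 1888 lower. Ncoa1, a nuclear receptor coactivator, was at 32.1 ± 3.20 CPM in controls and 47.7 ± 6.59 CPM with NAP, with all 6 NAP libraries above every control (log2 fold change 0.57, SE 0.14, adjusted p = 0.0540 in edgeR's quasi-likelihood test). Nr3c1, the glucocorticoid receptor, a known activator of Slc10a2, was at 66.8 ± 8.62 and 109.8 ± 27.5 CPM, with 5 of 6 NAP libraries above every control (log2 fold change 0.72, SE 0.19, adjusted p = 0.0611). Both CDX genes of the list had negative values that missed the adjusted threshold. Cdx1 was at 313 ± 92.4 CPM in controls and 160 ± 61.0 CPM with NAP, with 5 of 6 NAP libraries below every control (log2 fold change −0.96, SE 0.27, unadjusted p = 0.00364, adjusted p = 0.0694). Cdx2 had a log2 fold change of −0.82 (unadjusted p = 0.00591, adjusted p = 0.0815). Rxra, an RXR partner of FXR, was at 92.4 ± 26.7 and 104.5 ± 22.9 CPM (log2 fold change 0.18, adjusted p = 0.647). Rxrb, another RXR gene, was at 53.7 ± 6.56 and 37.6 ± 7.07 CPM, with 5 of 6 NAP libraries below every control. Its log2 fold change was −0.51 (unadjusted p = 0.00576, adjusted p = 0.0810 in edgeR's quasi-likelihood test). Cdx1, Cdx2, Rxra and Rxrb were named for their role, outside the rule on p.

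Of 9 other FXR target genes, 8 were tested and 0 passed, 4 positive and 4 negative, with a median of 0.14. Only 1 of the 8 was at an unadjusted p under 0.05, beside 23.6% of all tested genes. Ang, an angiogenin, was at 17.8 ± 7.64 CPM in controls and 9.20 ± 2.24 CPM with NAP (log2 fold change −0.95, SE 0.29, adjusted p = 0.0815 in edgeR's quasi-likelihood test). Nos2, the inducible nitric oxide synthase, was at 33.6 ± 16.8 and 58.8 ± 27.3 CPM (log2 fold change 0.80, adjusted p = 0.218). Of the FGF15 axis, 3 of 4 genes were tested and 0 passed. Fgfr4, its receptor, was at 14.9 ± 9.78 and 5.88 ± 3.63 CPM (log2 fold change −1.34, SE 0.50, unadjusted p = 0.0195, adjusted p = 0.134 in edgeR's test). Klb, the co-receptor, was at 1.21 ± 0.534 and 1.65 ± 0.781 CPM (adjusted p = 0.547).

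Of 15 other bile acid and lipid transporters, 8 were tested and 0 passed, 4 positive and 4 negative. At an unadjusted p under 0.05 were 2 of the 8, beside 23.6% of all tested genes. Abcb1a, a drug efflux pump of the apical membrane, was at 717 ± 74.4 CPM in controls and 1131 ± 233 CPM with NAP, with 5 of 6 NAP libraries above every control (log2 fold change 0.66, SE 0.19, adjusted p = 0.0755 in edgeR's quasi-likelihood test). Abcc4, an exporter of conjugated organic anions, was at 107.5 ± 72.3 and 55.0 ± 15.5 CPM (log2 fold change −0.97, adjusted p = 0.121). The liver transporters Slc10a1 and Abcb11 missed the filter, with 23 and 62 counts in controls and 16 and 51 after NAP. In the SLC10 family besides Slc10a2, 3 of 6 genes were tested and 0 passed. Slc10a7 and Slc10a3 had log2 fold changes of −0.24 and 0.19 (adjusted p = 0.537 and 0.665). In the FABP family besides Fabp6, 2 of 8 were tested and 0 passed. Fabp2, the intestinal fatty acid binding protein, was at 97.5 ± 73.3 and 113.6 ± 55.3 CPM (adjusted p = 0.815), and Fabp5 had a log2 fold change of −0.03 (adjusted p = 0.967). For the SLC10 and FABP families together, 0 genes reached an unadjusted p under 0.05.

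Of 8 enzymes that detoxify bile acids, 7 were tested and 0 passed, 5 positive and 2 negative, with a median of 0.53. At an unadjusted p under 0.05 were 2 of the 7, both higher, beside 23.6% of all tested genes. Ugt2b34, a glucuronosyltransferase, was at 474 ± 154 CPM in controls and 854 ± 174 CPM with NAP, with all 6 NAP libraries above every control (log2 fold change 0.85, SE 0.25, adjusted p = 0.0747 in edgeR's quasi-likelihood test). Cyp3a25, a cytochrome of a family that hydroxylates bile acids, was at 0.723 ± 0.523 and 2.31 ± 1.46 CPM (log2 fold change 1.70, adjusted p = 0.171). Near-identical members of the Ugt and Cyp3a families can share reads, so these values are uncertain. Of 18 enzymes of bile acid synthesis and conjugation, 10 were tested and 0 passed, 3 positive and 7 negative (median −0.17), with 0 at an unadjusted p under 0.05. Hsd3b7 and Acot8 had log2 fold changes of −0.28 and −0.44 (adjusted p = 0.358 and 0.395). Cyp7a1, the rate-limiting enzyme in the liver, had 8 counts over all controls and 0 over all NAP libraries, and Cyp8b1 had 1 and 3.

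**Figure D4:**
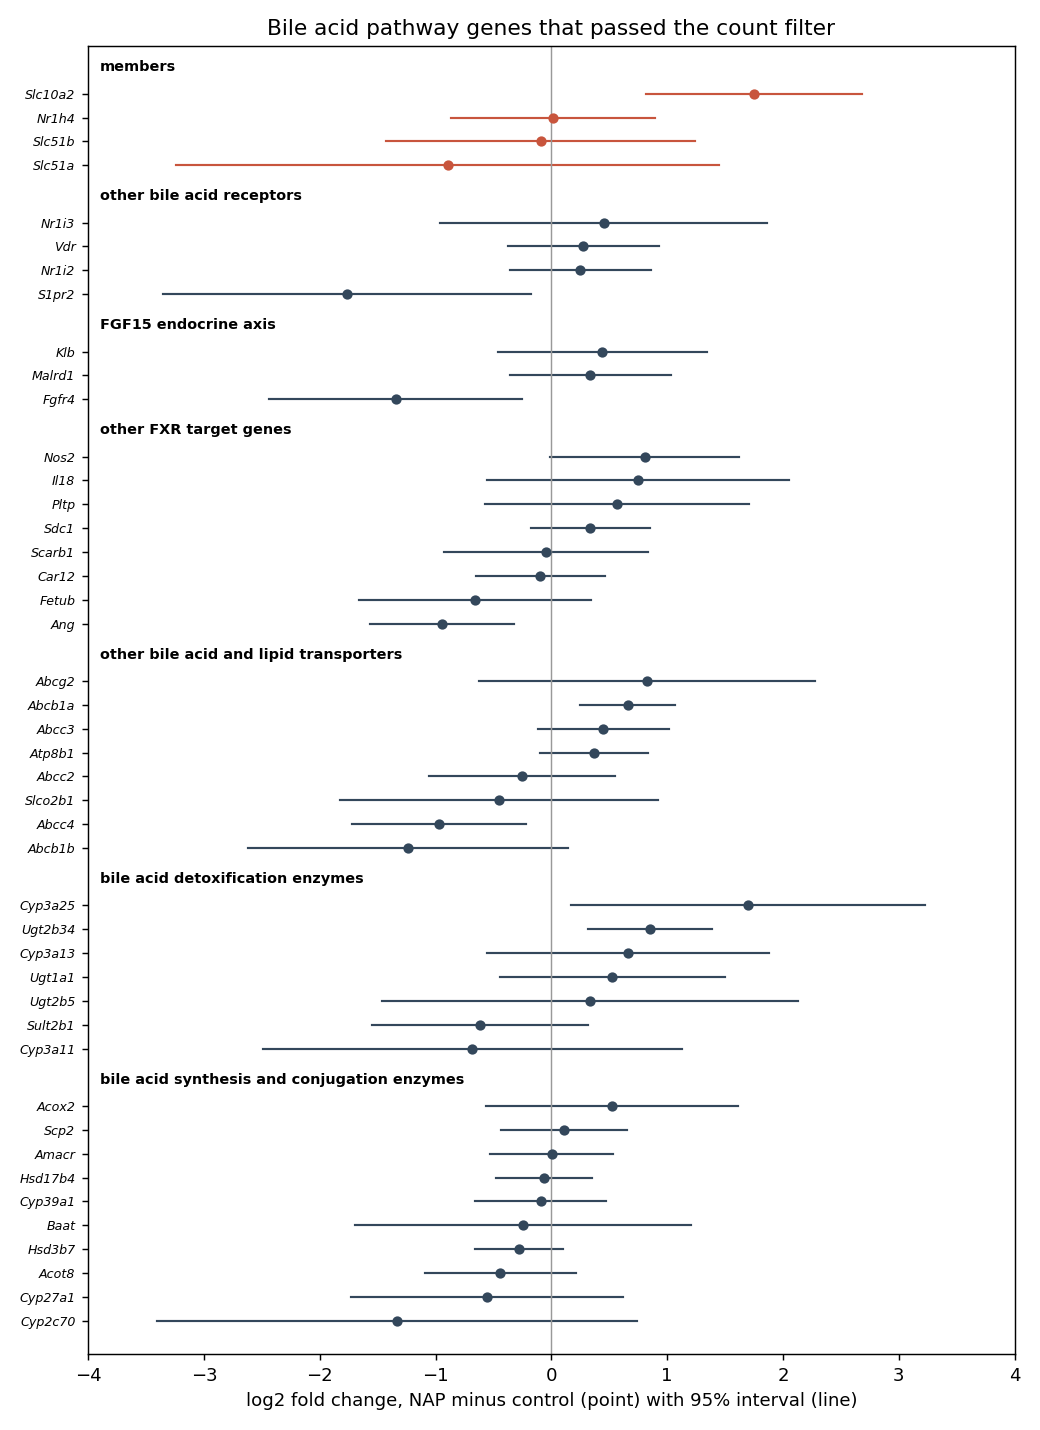
Log2 fold change of NAP over control (points, horizontal axis) with 95% intervals (lines) for the tested genes of the set (red) and of 6 bile acid pathway lists (dark grey). The Slc10a2 interval runs from 0.82 to 2.68, the other 3 genes of the set have intervals across 0, and 0 genes shown passed the adjusted threshold.

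The label of colorectal epithelium was checked with marker genes. Colon segment genes summed to 294 to 373 CPM in controls and 221 to 347 CPM with NAP, and of these 4 genes Hoxb13 had the smallest p (adjusted p = 0.201). Colonocyte markers, all 16 tested, summed to 5514 to 29860 CPM in controls and 14919 to 20888 CPM with NAP, with 7 positive and 9 negative (median −0.06). Of the 16, 1 passed the threshold, beside 2.12% of all tested genes. At an unadjusted p under 0.05 were 4, all higher, beside 23.6% of all tested genes. The 1 that passed was Ceacam1, an adhesion molecule of the surface epithelium, at 863 ± 81.7 CPM in controls and 1650 ± 259 CPM with NAP (log2 fold change 0.94, SE 0.18, adjusted p = 0.0383 in edgeR's quasi-likelihood test). Stem cell markers, 12 of 13 tested, had 12 negative log2 fold changes (median −0.84), where 8200 of all 14840 tested genes were negative. Of the 12, 0 passed the threshold and 2 were at an unadjusted p under 0.05, beside 23.6% of all tested genes. The stem cell markers summed to 231 to 1867 CPM in controls and 394 to 701 CPM with NAP, and Tnfrsf19 had the smallest p (adjusted p = 0.194). Olfm4, a stem cell marker of the small intestine, had 10 counts over the controls. Pan-epithelial markers summed to 9177 to 17819 and 10000 to 13886 CPM, and Cdh1 had the smallest p (adjusted p = 0.0664).

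Slc10a2 is a marker of ileal absorptive cells, so other small intestinal enterocyte markers were set beside it. Of 17, 14 were tested and 0 passed, 9 positive and 5 negative (median 0.34). At an unadjusted p under 0.05 were 2 of the 14, both higher, beside 23.6% of all tested genes. Sis, sucrase-isomaltase, was at 30.3 ± 25.3 CPM in controls and 109 ± 49.0 CPM with NAP, with 4 of 6 NAP libraries above every control (log2 fold change 1.85, SE 0.58, adjusted p = 0.0851 in edgeR's quasi-likelihood test). The list summed to 261 to 1258 CPM in controls and 679 to 1075 CPM with NAP. Lct, Fabp1 and Slc2a2 missed the filter, with 8, 2 and 3 counts in controls and 3, 10 and 19 after NAP. The part of enterocyte cell share or state in the Slc10a2 difference was not tested, nor was that of the mitochondrial share.

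Markers of cells outside the epithelium were low. Immune markers summed to 6.09 to 14.5 CPM in controls and 9.81 to 24.3 CPM with NAP, with 3 of 7 tested and 0 past the threshold. Itgam had the smallest p of these (1.48 ± 0.941 and 3.82 ± 1.71 CPM, adjusted p = 0.106 in edgeR's quasi-likelihood test). Mesenchymal markers, 0 of 7 tested, summed to 0.504 to 4.58 and 0.335 to 21.6 CPM, with the highest sum in NAP 5. Endothelial markers, 1 of 4 tested, summed to 3.13 to 4.81 and 2.87 to 4.95 CPM, and Vwf, the tested one, had an adjusted p of 0.898. The proliferation, goblet, enteroendocrine, tuft and Paneth lists had 0 genes past the threshold. Their smallest p was in Pcna, Atoh1, Sct, Trpm5 and Itln1 (adjusted p = 0.245, 0.395, 0.160, 0.208 and 0.531). Of the 8 proliferation genes, 7 had negative log2 fold changes (list median −0.61), while that of Pcna was positive at 0.58.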

How the data were processed

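Poly(A) RNA was sequenced for 11 libraries, grouped and numbered by their titles. The authors deposited whole-number counts per gene and, for the same genes, FPKM values. The submitters' processing notes name Trimmomatic 0.39, HISAT2 2.2.1, featureCounts and Subread 2.0.8 and the build GRCm39. The strand setting, the use of multi-mapped reads and the annotation release are details not given in the sources used here. Each deposited FPKM value equals the count times 1 constant per library over gene length, and the constant was 0.870 to 1.28 times the count total.

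Counts were filtered with filterByExpr (14840 genes kept), scaled with TMM and tested in edgeR 4.0.16 under R 4.3.3 (quasi-likelihood, robust), with Benjamini-Hochberg adjustment over all tested genes and a threshold of 0.05. Standard errors are the log2 fold change over the square root of the test statistic. Log2 CPM used a prior count of 2. Genes below the filter were compared by exact permutation of mean CPM, with values of 0 kept. The floor of 3 counts marks the limit of detection and did not enter the permutation. Intervals and floors cover counting error only. Marker scores are mean deviations of log2 CPM from each gene's mean over libraries.

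The members, the pathway and marker lists and the alternatives were chosen with earlier results of these data known. Pathway lists name the 2 genes with the smallest p, marker lists the smallest, or those past the threshold, and patterns the 3 highest r among genes whose mean log2 CPM reached 1. Cdx1, Cdx2, Rxra, Rxrb, the genes named for having few counts and 2 opposite-strand genes stand outside that rule. Alternatives used DESeq2 1.42.0, limma 3.58.1 on voom values or on the deposited FPKM as log2(FPKM + 1) and log2(FPKM + 0.1), other scalings and filters, a replicate block, the marker score as a covariate, GC trends removed (lowess, span 0.3, GC content from GENCODE M21 for 84.0% of tested genes) and libraries left out. Scripts were tested on simulated data. A further motif and some genes are not reported here. Promoter windows are from RefSeq (GRCm38.p6), and gene coordinates are those of the deposited table.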

Additional observations from a re-analysis of the deposited data

Results flagged for a closer look

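In 3 of the 14 groups of library values examined, 1 library lay far from the rest of its group by the gap between neighbours, and all 3 were low-count genes. A chance rate of about 1 in 20 groups holds for normal values. It does not hold for low counts with ties at 0, so 3 of 14 cannot be set against it. Fabp6 was at 0.566 CPM in NAP 6, from 12 counts, with the next NAP library at 0.163 CPM. Nr0b2 was at 0.518 CPM in NAP 6, from 11 counts, with the other 5 NAP libraries at 0. Fgf15 was at 2.07 CPM in NAP 1, from 37 counts, with the next NAP library at 0.813 CPM.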

How the results depend on the processing

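Slc10a2 kept its direction under every alternative run and passed the threshold in DESeq2 (log2 fold change 1.77), limma-voom (2.10), limma on log2(FPKM + 1) (1.66), with the marker score as a covariate (1.71) and with controls 1 and 4 left out (1.51). With single libraries left out it ranged from 1.47 to 1.93. The count of members past the threshold, 0 of 4, was then 1 of 4 in those settings (1 of 5 tested without controls 1 and 4), 1 at an adjusted p of 0.1, and 0 to 1 with single libraries left out. Slc51a turned positive in limma-voom (1.11), limma on log2(FPKM + 0.1) (0.50) and without controls 2 and 5 (1.95), and ranged from −1.29 to −0.27 with single libraries left out. Slc51b turned positive with count totals only (0.026), limma-voom (0.86), limma on log2(FPKM + 1) (0.58) and log2(FPKM + 0.1) (0.70), the score covariate (0.11), a replicate block (0.57) and without controls 2 and 5 (1.72), and ranged from −0.37 to 0.42 with single libraries left out. Nr1h4 turned negative with the score covariate (−7.74e-04), without controls 1 and 4 (−0.47) and with GC trends removed (−0.11), and ranged from −0.21 to 0.42 with single libraries left out. Fabp6, at −0.140 to 0.0487 CPM with single libraries left out, changed sign without control 2 (0.0487), and Nr0b2, at −0.114 to 0.0340 CPM, without control 5 (0.0340). Fgf15 ranged from 0.232 to 0.573 CPM.

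The 315 genes past the threshold became 41 with count totals only, 89 with no filter, 1656 of 12701 in DESeq2, 328 in limma-voom, 359 in limma on log2(FPKM + 1), 3208 with the score covariate, 824 without controls 2 and 5, 1315 of 15873 without controls 1 and 4, 25 with GC trends removed, 1480 at an adjusted p of 0.1 and 0 at 0.01, and 0 to 814 with single libraries left out. The cause of these changes in the count was not tested. With the replicate block 0 genes passed (2903 at an unadjusted p under 0.05), and Slc10a2 was at 2.02 with an adjusted p of 0.135. The labels do not say whether same-numbered control and NAP libraries were paired. Their deviations correlated at 0.42, 0.34, −0.07, −0.30 and 0.30, and the own number was the best match for 2 of 5. These values do not settle whether the libraries were paired. Depth limits Fabp6, Nr0b2 and Fgf15, which missed the count filter, and the lowest Slc51a libraries, which hold 2 and 4 counts.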
